A study of Mus musculus with 98 samples.

Results

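Aminoacyl-tRNA synthetases are the enzymes that join each amino acid to its transfer RNA, and 36 of their genes were followed here in single innate lymphoid cells (ILCs) of the mouse gut. The 36 genes are 20 for cytosolic enzymes and 16 for mitochondrial enzymes, out of 23420 gene symbols in the deposited tables, and all 36 were matched by the older symbols that the tables use. The family was selected on the level of 1 cytosolic member, which stood far higher in R9 cells. The comparison of R9 with WT therefore describes the family and is not a test of it. Counts over the 20 cytosolic genes include that member unless stated.

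Each ribosome takes its amino acids from charged transfer RNAs, so every cell that makes protein needs a synthetase activity for each amino acid. The cytosol and the mitochondrion keep largely separate sets of enzymes, and by convention the symbols of the mitochondrial set end in 2. Part of the cytosolic set sits in a multi-synthetase complex held together by scaffold proteins, and the others act free of it. When charged transfer RNA runs short, the kinase GCN2 signals through the transcription factor ATF4, which raises the transcription of many cytosolic synthetase genes together with genes of amino acid synthesis and import.

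R9-ILCs had been regenerated from mouse pluripotent stem cells. They were sorted as CD45.2+GFP+Lin-CD127+ cells from the gut of Rag2-/-Il2rg-/- recipients, which lack their own lymphocytes, 3 weeks after transplantation. The WT-ILCs, CD45.2+Lin-CD127+ cells, were taken from intestines of C57BL/6 wild-type animals, 8 weeks old, so the groups differ in cell source, host and GFP at once. The 67 R9 cells carry titles of 2 kinds, 32 with no numeric ending and 35 with the ending 1. The labels do not say what the ending stands for, and the 2 kinds are called R9 no ending and R9 ending 1 here. The 31 WT columns came down to 22 cells after near-identical columns were averaged. No label names the animals, so each group counts as 1 sample, no p-value is given, and every difference below compares these cells.

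Levels are TPM, transcript abundances corrected for length that sum to 1000000 in each column, so depth is unknown. A gene is called detected in a cell at 1 TPM or more. The median number of genes detected was 2092.5 in WT, 2082.5 in R9 no ending and 2429 in R9 ending 1 cells. Id2, Il7r and Il2rg, which mark ILCs, were detected in all 89 cells. The other genes of the list of 8 ILC markers were found in fewer cells, down to 5 of 22 in WT and 30 of 67 in R9. A cell detected on average 72.7% of the 8 in WT, 85.5% in R9 no ending and 81.1% in R9 ending 1. Il23r, a cytokine receptor chain typical of group 3 ILCs, was detected in 20 of 22 WT and in 60 of 67 R9 cells. Among markers of other cells, the 12 epithelial genes summed to a median of 7586 TPM in WT (15.5 to 101163), 741 in R9 no ending (0 to 435758) and 51.1 in R9 ending 1 (0.753 to 13773). A cell detected on average 51.9% of the 12 in WT, 20.6% in R9 no ending and 36.9% in R9 ending 1. Of the 12, only Muc2 was listed at 0 in every R9 cell. The 7 mast cell and basophil genes summed to a median of 1349 TPM in R9 no ending (61.1 to 4568) but 0 in both WT (highest 3.92) and R9 ending 1 (highest 616). Tpsb2 and Cpa3 were listed at 0 in every WT cell, and Tpsb2 also in every R9 ending 1 cell. The 6 macrophage and dendritic genes had a median sum of 347 TPM in R9 no ending (23.96 to 3472) and 0 in WT (highest 4834) and R9 ending 1 (highest 1874). A cell detected on average 12.1% of the 6 in WT, 32.8% in R9 no ending and 7.14% in R9 ending 1. Of the 6, only Itgax was listed at 0 in every R9 cell. The 4 erythroid genes in the tables summed to a median of 9.75 TPM in WT (0 to 870), 170 in R9 no ending (0 to 10989) and 94.1 in R9 ending 1 (0 to 194862), with Alas2 listed at 0 in every WT and R9 no ending cell. The part of these other transcripts in the results below was not tested.

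Most synthetase genes were caught in a minority of cells. In WT, a cytosolic synthetase was detected in a median of 18.2% of cells, in R9 no ending in 21.9% and in R9 ending 1 in 34.3%. For the mitochondrial set these medians were 11.4%, 9.38% and 14.3%. Only 2 of 20 cytosolic genes reached 50% of the cells in WT, against 3 in R9 no ending and 5 in R9 ending 1. Without the member on which the family was selected, these were Farsb and Vars in WT, and Farsa and Vars in R9 no ending. In R9 ending 1 they were Kars, Nars, Rars and Vars. Lars2 alone reached 50% among the 16 mitochondrial genes in each of the 3 sets. A zero in such data can be a missed transcript, so a gene at 0 is only said to be listed at 0.

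**Figure D1:**
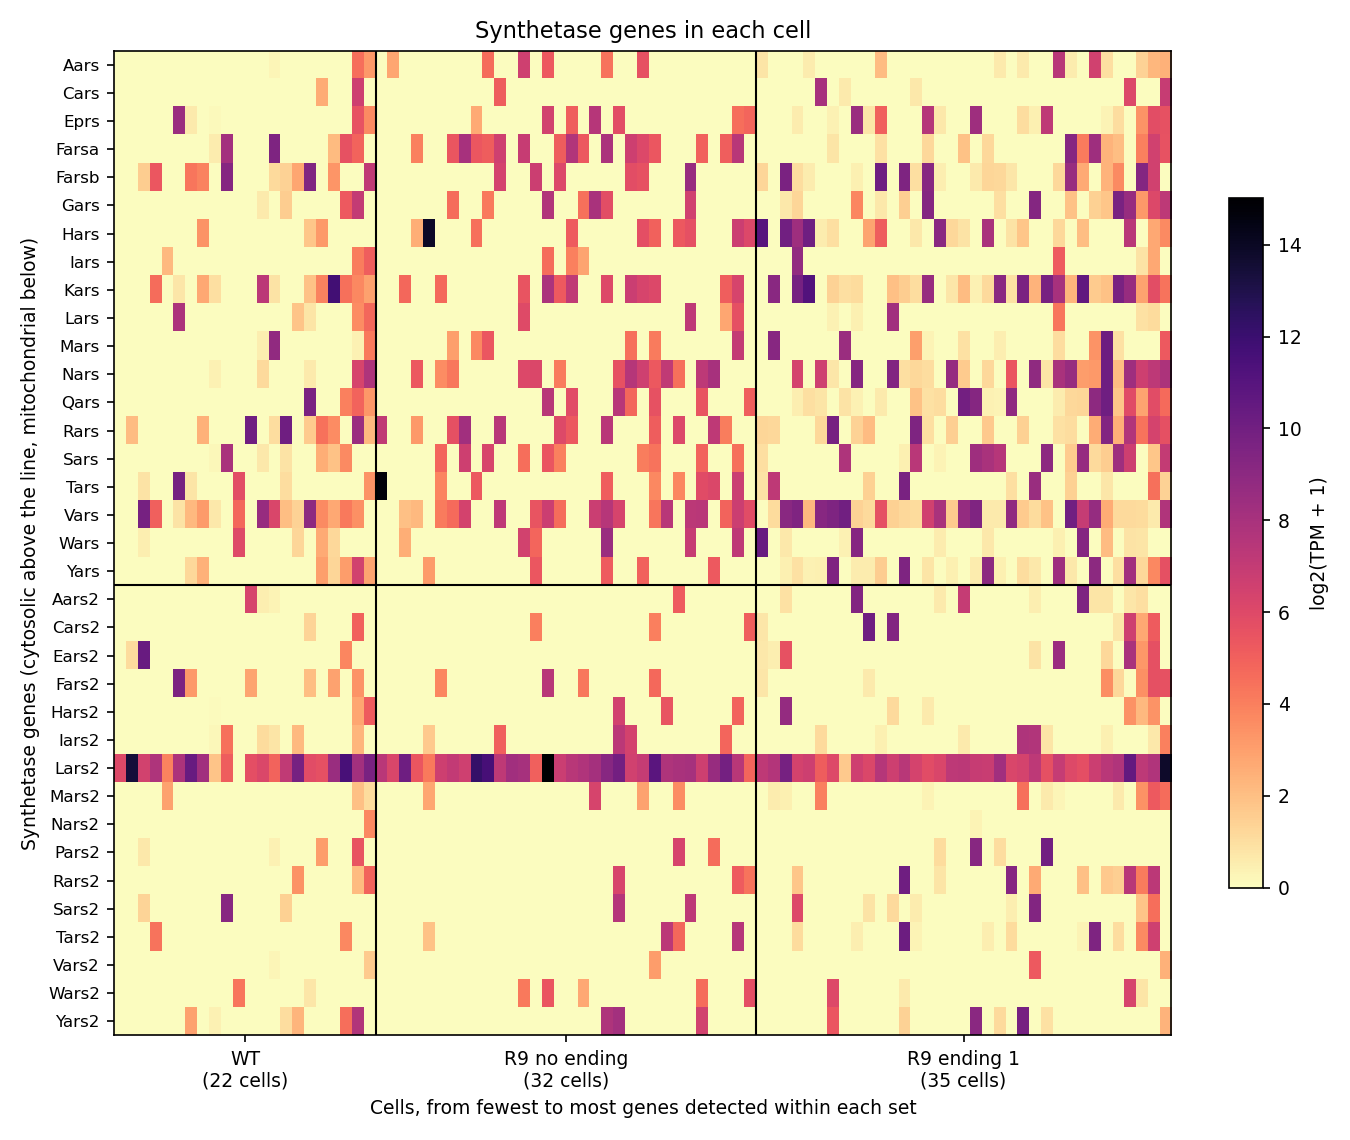
Heat map of log2(TPM + 1), darker for higher, with 1 row for each of 35 synthetase genes (19 cytosolic above the line, 16 mitochondrial below) and 1 column for each cell, ordered within WT (22 cells), R9 no ending (32) and R9 ending 1 (35) from the fewest to the most genes detected. Lars2 is filled in all cells but 1, the row of Nars holds more filled cells in both R9 sets than in WT, and most other mitochondrial rows are pale.

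Levels of the 2 groups were compared as a ratio, the log2 of (mean TPM + 1) in R9 over (mean TPM + 1) in WT, which understates differences of low genes. The median ratio over all genes with a mean of at least 1 TPM in either group was 0.62 for all R9 cells, -0.67 for R9 no ending and 0.94 for R9 ending 1. A ratio of a member is read beside these medians. Without the highest cell of each group, the median of all genes was 1.36 for all R9 cells. For each R9 series alone that median was not worked out. Intervals in parentheses after a share of cells are exact (Clopper-Pearson, 95%) and cover counting error only.

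Of the multi-synthetase complex enzymes described here, Iars was 2-fold or more higher in R9 and Rars 2-fold or more lower. Among all 10691 genes with a mean of at least 1 TPM in either group, 43.0% were higher by this fold and 21.3% lower.

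Kars charges lysine and is among the better detected complex enzymes. It was detected in 9 of 22 WT cells (0 to 3441 TPM, median 0.73), 12 of 32 R9 no ending cells (0 to 232 TPM, median 0) and 25 of 35 R9 ending 1 cells (0 to 2308 TPM, median 2.93). A single WT cell held 93.3% of the WT sum. With that cell, means were 168 TPM in WT and 155 TPM in R9 and the log2 ratio was -0.11; without the highest cell of each group it was 3.27, and with cells rescaled by genes that most cells of both groups detected it was -1.90.

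Rars, the arginine enzyme, was the only cytosolic gene that was 2-fold lower. It was detected in 10 of 22 WT cells (0 to 1082 TPM, median 0), 12 of 32 R9 no ending cells (0 to 298 TPM, median 0) and 18 of 35 R9 ending 1 cells (0 to 907 TPM, median 1.01). The ranges overlap throughout, and 2 WT cells above 1000 TPM set the WT mean of 116 TPM against 57.6 TPM in R9. The log2 ratio of -1.001 became -0.64 without the highest cells and 0.08 as a difference of mean log2 values, which gives each cell the same weight. The medians of all genes were then 1.36 and 0.12, so Rars stayed below both.

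Most complex members were detected in few cells. Eprs, the joint glutamate and proline enzyme, had means of 18.5 TPM in WT and 23.4 TPM in R9. Lars, for leucine, had 11.9 and 8.70 TPM, and Mars, for methionine, 21.8 and 34.9 TPM. Qars, for glutamine, had 39.2 and 63.9 TPM, with detection in 4 of 22 WT, 7 of 32 R9 no ending and 14 of 35 R9 ending 1 cells. Without the highest cell of each group, 3 of these passed 2-fold, with log2 ratios of 2.36 for Eprs, 3.38 for Mars and 3.85 for Qars, where the median of all genes was 1.36. Iars, for isoleucine, had 2.38 and 7.71 TPM, but 1 R9 cell held 83.3% of the R9 sum and the ratio of 1.37 was 0.25 without the highest cells. A processed pseudogene, Gm4849, matches 1656 bases of the Iars transcript at 96.0% identity, so reads of Iars may be shared with it.

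The 3 scaffold genes of the complex were each 2-fold or more higher in R9 (beside 43.0% of all genes), with a median log2 ratio of 2.48. Aimp1 averaged 103 TPM in R9 against 19.1 TPM in WT, Aimp2 84.1 against 14.3 and Eef1e1, which encodes the scaffold AIMP3, 59.5 against 1.15. In R9 no ending the means were 18.2, 41.3 and 11.7 TPM, and in R9 ending 1 180, 123 and 103 TPM. Most of the scaffold level in R9 therefore came from the R9 ending 1 cells. All 3 were 2-fold or more higher in R9 ending 1 than in R9 no ending, as were 64.9% of all genes. The median log2 ratio was 3.03, beside 1.61 for all genes. In R9 ending 1, Kars and Aimp2 were both detected in 18 of 35 cells, Kars without Aimp2 in 7 and Aimp2 without Kars in 0. In R9 no ending these counts were 6, 6 and 5 of 32 cells, and in WT 4, 5 and 2 of 22 cells, so Aimp2 was also found without Kars there.

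Among the 12 cytosolic enzymes outside the complex, 8 were 2-fold or more higher in R9 (66.7%, beside 43.0% of all genes) and 0 lower (beside 21.3%), with a median log2 ratio of 2.21. These were Aars, Gars, Hars, Nars, Sars, Tars, Wars and Yars. Cars, Farsa, Farsb and Vars lay between the folds.

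Hars, the histidine enzyme, had the highest ratio of the family, 7.40. It was detected in 3 of 22 WT cells (0 to 9.28 TPM, median 0), 10 of 32 R9 no ending cells (0 to 15473 TPM, median 0) and 15 of 35 R9 ending 1 cells (0 to 2044 TPM, median 0.77). One R9 no ending cell held 72.5% of the R9 sum, and the ratio was 5.91 without the highest cells. In both R9 sets 9 cells lay above the highest WT cell, so the difference did not rest on that cell alone. Hars and Hars2 lie on opposite strands of chromosome 18, are read away from each other and share 195 exon bases where they start. The counting is not known to have used strand.

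Nars, the asparagine enzyme, was detected in 3 of 22 WT cells (0 to 214 TPM, median 0), 14 of 32 R9 no ending cells (0 to 260 TPM, median 0) and 21 of 35 R9 ending 1 cells (0 to 1106 TPM, median 2.11). Means were 13.4 TPM in WT, 36.2 in R9 no ending and 140 in R9 ending 1, a log2 ratio of 2.67 for R9 over WT. The highest values of WT and R9 no ending were alike in size, and the share of cells with Nars was 13.6% (2.91 to 34.9) against 43.8% (26.4 to 62.3). In R9 ending 1, 9 of 35 cells exceeded the highest WT cell.

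Vars, the valine enzyme, which is bound to elongation factor 1, was the cytosolic synthetase detected in the most cells. It was found in 14 of 22 WT cells (0 to 885 TPM, median 4.62), 19 of 32 R9 no ending cells (0 to 176 TPM, median 17.9) and 30 of 35 R9 ending 1 cells (0 to 1022 TPM, median 2.82). Mean levels were 88.2 TPM in WT and 132 TPM in R9, a log2 ratio of 0.58 that lay close to the median of all genes.

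Farsa and Farsb encode the 2 subunits of a single enzyme, the cytosolic phenylalanine synthetase. Farsa was detected in 5 of 22 WT cells (0 to 740 TPM, median 0), 17 of 32 R9 no ending cells (0 to 260 TPM, median 22.4) and 11 of 35 R9 ending 1 cells (0 to 591 TPM, median 0). Farsb was detected in 11 of 22 WT cells (0 to 670 TPM, median 0.62), 6 of 32 R9 no ending cells (0 to 388 TPM, median 0) and 15 of 35 R9 ending 1 cells (0 to 1101 TPM, median 0.55). The subunit more often detected was Farsb in WT and Farsa in R9 no ending. Both were detected together in 3 of 22 WT, 4 of 32 R9 no ending and 8 of 35 R9 ending 1 cells, so most cells with 1 subunit lacked a detected partner. Their log2 ratios were -0.35 and 0.16. Farsb shares 248 exon bases with Sgpp2 on the opposite strand.

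The other free enzymes differed in how many cells carried their mean. Tars, for threonine, averaged 44.1 TPM in WT and 438 TPM in R9, but 1 R9 no ending cell at 27676 TPM held 94.2% of the R9 sum, and in R9 ending 1 the log2 ratio was -0.19. Wars, for tryptophan, averaged 3.13 and 48.8 TPM and was detected in 4 of 22 WT and 10 of 67 R9 cells. Yars, for tyrosine, averaged 5.33 and 49.5 TPM, with 4.70 TPM in R9 no ending and 90.4 TPM in R9 ending 1. The Yars difference therefore lay in the R9 ending 1 cells. Gars, for glycine, averaged 7.65 and 50.2 TPM, and Sars, for serine, 12.1 and 44.0 TPM. Sars was detected in 24 of 67 R9 cells, with 16.4% of the R9 sum in the highest, and was at 100 TPM or more in 10 of 35 R9 ending 1 cells, 0 of 32 R9 no ending cells and 1 of 22 WT cells. Aars, for alanine, averaged 1.40 and 7.64 TPM, and Cars, for cysteine, 4.84 and 7.26 TPM; each was detected in under 20% of the cells of every set. Aars shares 1326 exon bases with Exosc6 on the same strand, so its reads cannot be told apart there.

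**Figure D2:**
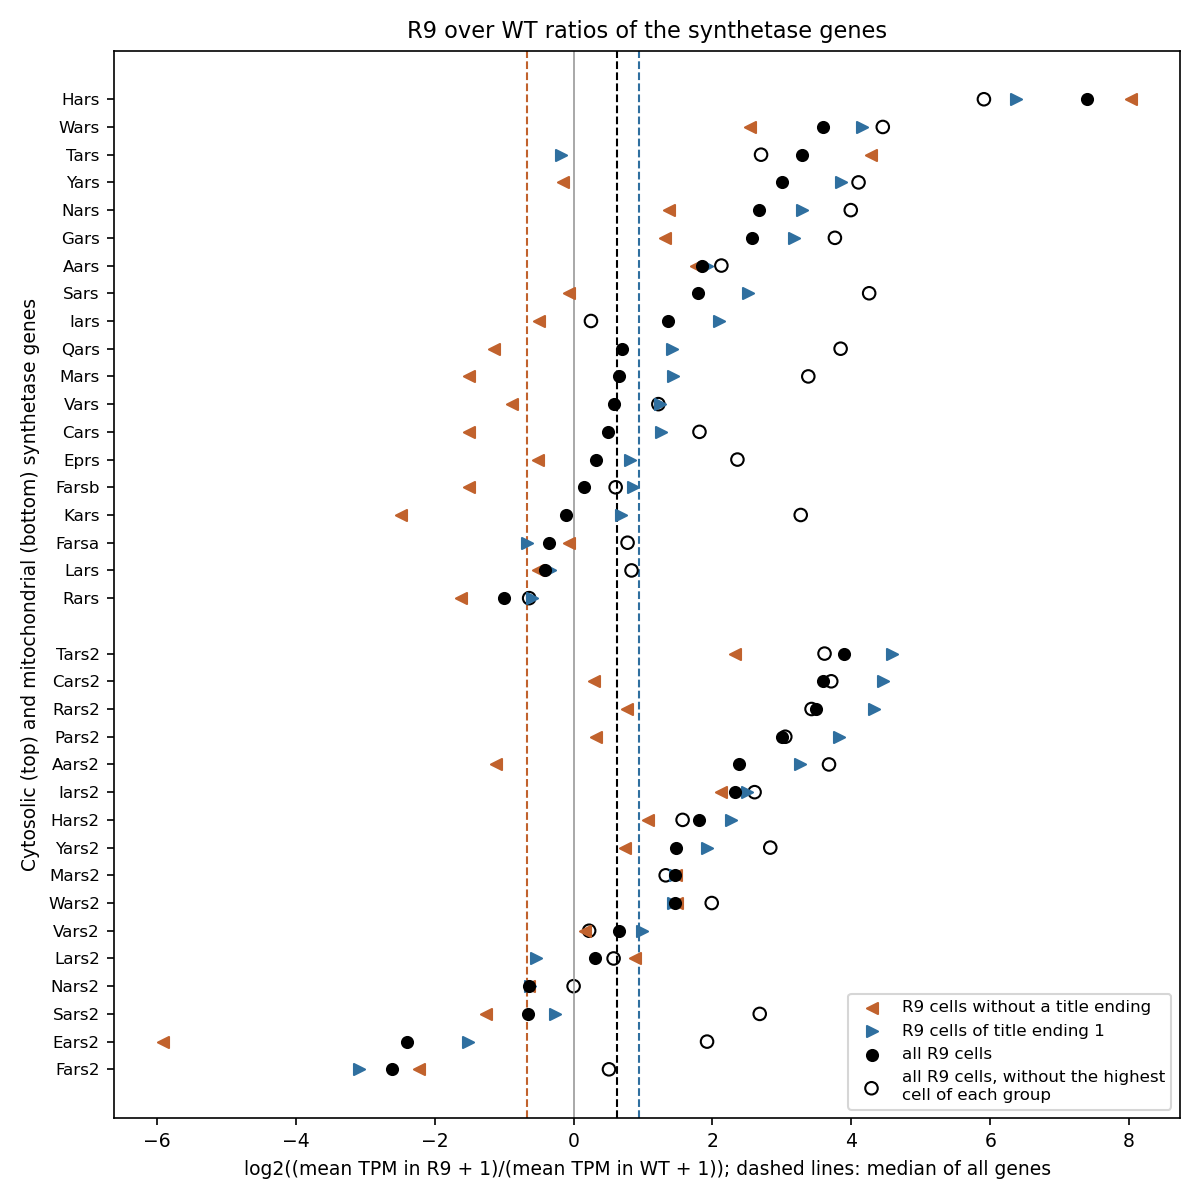
Log2 ratio of mean TPM + 1 over WT for each synthetase gene, for all R9 cells (filled circles), for each R9 title series (triangles) and for all R9 cells without the highest cell of each group (open circles), with dashed lines at the median of all genes. Hars stands farthest to the right of the 35 genes drawn, Fars2 and Ears2 cross to the right without the highest cells, and the Ears2 and Nars2 values of R9 no ending rest on genes listed at 0 there and are no measure of size.

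Over all 20 cytosolic genes, 10 were 2-fold or more higher in R9 (50%, beside 43.0% of all genes) and 1 lower (5%, beside 21.3%). The share higher is near the background, and the cytosolic median was 1.03. Without the member on which the family was selected, 9 of 19 were higher (47.4%) and the median was 0.69, beside 0.62 for all genes. In R9 no ending against WT, 7 were higher (35%, beside 26.6%) and 6 lower (30%, beside 44.5%), with a median of -0.33 (6 of 19 higher and -0.50 without that member). The 6 lower genes were Cars, Farsb, Kars, Mars, Qars and Rars. For Kars, Mars and Qars 1 WT cell held 93.3%, 96.2% and 93.9% of the WT sum, and without the highest cells their ratios turned to 0.88, 1.17 and 1.92, while Cars was at -0.31. In R9 ending 1 against WT, 13 were higher (65.0%, beside 48.8%) and 0 lower (beside 20.4%), with a median of 1.43 (12 of 19 and 1.42 without that member). These comparisons share the WT cells.

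The 2 R9 series differed from each other in the same family. R9 ending 1 was 2-fold or more higher than R9 no ending for 15 of 20 cytosolic genes (75.0%, beside 64.9% of all genes) and lower for 2 (Hars and Tars; 10%, beside 16.1%), with a median of 1.89 beside 1.61 for all genes (14 of 19 higher and 1.92 without that member). Hars and Tars were lower through 1 R9 no ending cell each, with 97.5% and 98.8% of that series' sum, and without the highest cells their ratios turned to 2.88 and 0.45. The mitochondrial counts were 9 of 15 higher (60%) and 1 lower (Lars2; 6.7%), with a median of 1.17. The cytosolic difference was thus near that of all genes. Since the labels give the title ending no meaning, the series and whatever they stand for cannot be told apart.

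**Figure D3:**
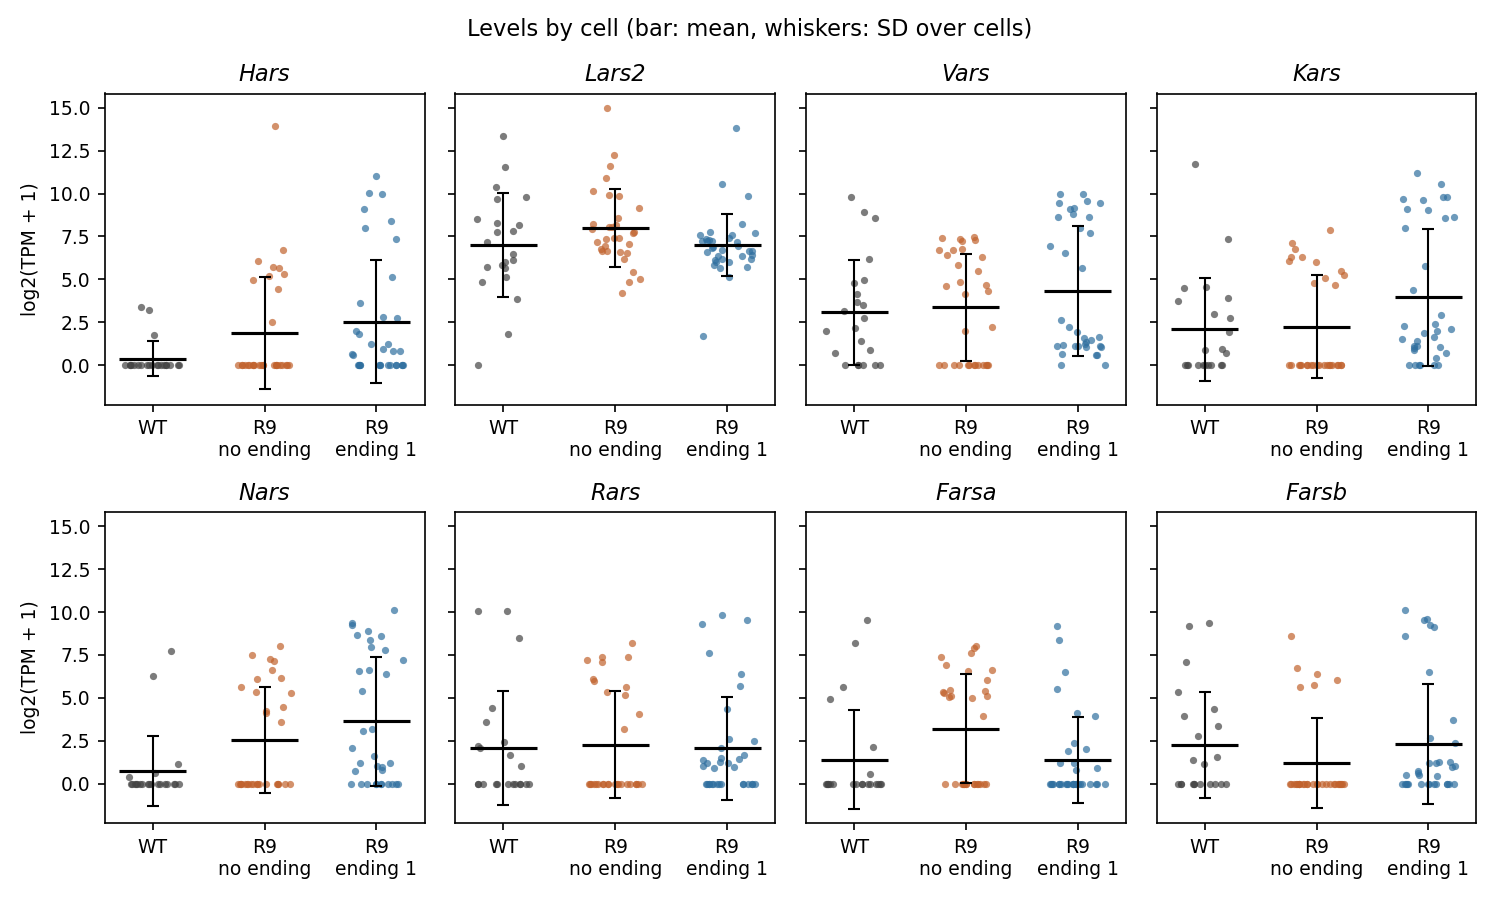
Log2(TPM + 1) of 8 synthetase genes in each cell (points), with the mean (bar) and the SD over cells (whiskers), in WT, R9 no ending and R9 ending 1. Hars lies at or below 9.28 TPM in all WT cells and reaches 15473 and 2044 TPM in the R9 sets, while the 3 sets of Lars2 overlap almost throughout.

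Lars2, the mitochondrial leucine enzyme, stood apart from the 15 other mitochondrial genes. It was detected in 21 of 22 WT cells (0 to 10668 TPM, median 114), in 32 of 32 R9 no ending cells (highest 32962 TPM, median 186) and in 35 of 35 R9 ending 1 cells (highest 14199 TPM, median 115). The 3 sets overlap almost throughout, and the log2 ratio of R9 over WT was 0.31. Its direction changed with the cells and the scaling used, and it was 0.88 for R9 no ending, -0.55 for R9 ending 1, -0.82 against the WT columns of title ending 1 and -3.44 with cells rescaled by genes that most cells of both groups detected. Lars2 lies on chromosome 9 (123366927 to 123462666, plus strand). Bases 3278 to 3349 of its transcript, which follow the end of the coding part at base 2905, match Gm15564 over 72 bases at 98.6% identity, so its reads may be shared with that transcript. Rn45s, the ribosomal RNA precursor, was found in every cell, and across cells its level and that of Lars2 had a Spearman rho of 0.33 in WT (22 cells), 0.26 in R9 no ending (32) and 0.28 in R9 ending 1 (35), where both values come from the same library. What share of the Lars2 level is its own transcript was not tested.

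The other mitochondrial genes were detected in 0 to 28.6% of cells of any set. Of the 16, 14 had a mean of at least 1 TPM in WT or R9, and Nars2 and Vars2 did not. R9 was 2-fold or more higher for 10 of the 14 (71.4%, beside 43.0%) and lower for 2 (14.3%, beside 21.3%), with a median of 1.64. The 10 ran from Wars2, at 1.45, to Tars2, the threonine enzyme, at 3.90 (means of 1.44 TPM in WT and 35.4 TPM in R9). Between them lay Mars2, Yars2, Hars2, Iars2, Aars2, Pars2, Rars2 and Cars2, and the highest of them in detection, Rars2 for arginine, was found in 3 of 22 WT cells and 13 of 67 R9 cells. For all 16 genes, more than 50% of the summed WT level came from 1 cell, so these means rest on few cells.

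Fars2, the mitochondrial phenylalanine enzyme, and Ears2, the glutamate enzyme, were the 2 lower genes. Fars2 was detected in 6 of 22 WT cells (0 to 773 TPM, median 0), 4 of 32 R9 no ending cells (0 to 168 TPM, median 0) and 5 of 35 R9 ending 1 cells (0 to 49.5 TPM, median 0). One WT cell held 95.9% of the WT sum, and the log2 ratio of -2.62 became 0.51 without the highest cell of each group. Ears2 was at 59.4 TPM in WT and 10.5 TPM in R9, and listed at 0 in all R9 no ending cells. A single WT cell at 1292 TPM held 98.9% of the WT sum, and its ratio of -2.40 became 1.92 without the highest cells. Neither gene kept its sign, and 0 mitochondrial genes were 2-fold lower once the highest cells were left out. The median of all genes was then 1.36, so Fars2 stayed below it and Ears2 lay above it. Sars2, for serine, had a ratio of -0.66 with 99.4% of the WT sum in 1 cell.

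In R9 no ending against WT, 5 of 14 mitochondrial genes were 2-fold or more higher (35.7%, beside 26.6% of all genes) and 4 lower (28.6%, beside 44.5%). Without the highest cells, the 4 were no longer 2-fold lower, at -0.74 for Ears2, -0.04 for Aars2, 0.13 for Fars2 and 2.33 for Sars2. In R9 ending 1 against WT, 10 of 15 were higher (66.7%, beside 48.8%) and 2 lower (13.3%, beside 20.4%). The medians were 0.76 and 1.92.

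The number of synthetases seen in a cell gives a view that no single high cell can set. A WT cell held 0 to 14 of the 20 cytosolic genes (median 3.5, mean 4.73), an R9 no ending cell 1 to 11 (median 5, mean 5.62) and an R9 ending 1 cell 3 to 16 (median 6, mean 7.17). For the 16 mitochondrial genes the means were 2.68, 2.25 and 2.97. A cell detected on average 23.6% of the cytosolic genes in WT, 28.1% in R9 no ending and 35.9% in R9 ending 1. For the mitochondrial genes these shares were 16.8%, 14.1% and 18.6%, and for all genes 10.5%, 9.10% and 11.9%. The cytosolic means were thus higher in both R9 sets and the mitochondrial mean in 1 of them, with wide overlap between cells. The cytosolic counts include the member on which the family was selected, which adds to this difference through that choice. How much of the difference it carries was not tested, so the higher cytosolic means are a description only. At 10 TPM or more the cytosolic means were 2.55, 5.28 and 4.17, and the order of the 2 R9 series turned. The share of all genes at that limit was 6.88%, 8.13% and 7.62%, so the order turned there too. Counts went with the number of all genes detected, with a Spearman rho for the cytosolic set of 0.83 in WT, 0.34 in R9 no ending and 0.63 in R9 ending 1, where each point is a cell and both numbers come from the same library.

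The limit matters because low values were spread unequally. Of the cytosolic values at 1 TPM or more, 46.2% lay under 10 TPM in WT and 41.8% in R9 ending 1, but 6.11% in R9 no ending. Over all genes these shares were 34.4%, 36.2% and 10.6%. The R9 no ending cells thus held few values just above the limit, for synthetases as for other genes.

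**Figure D4:**
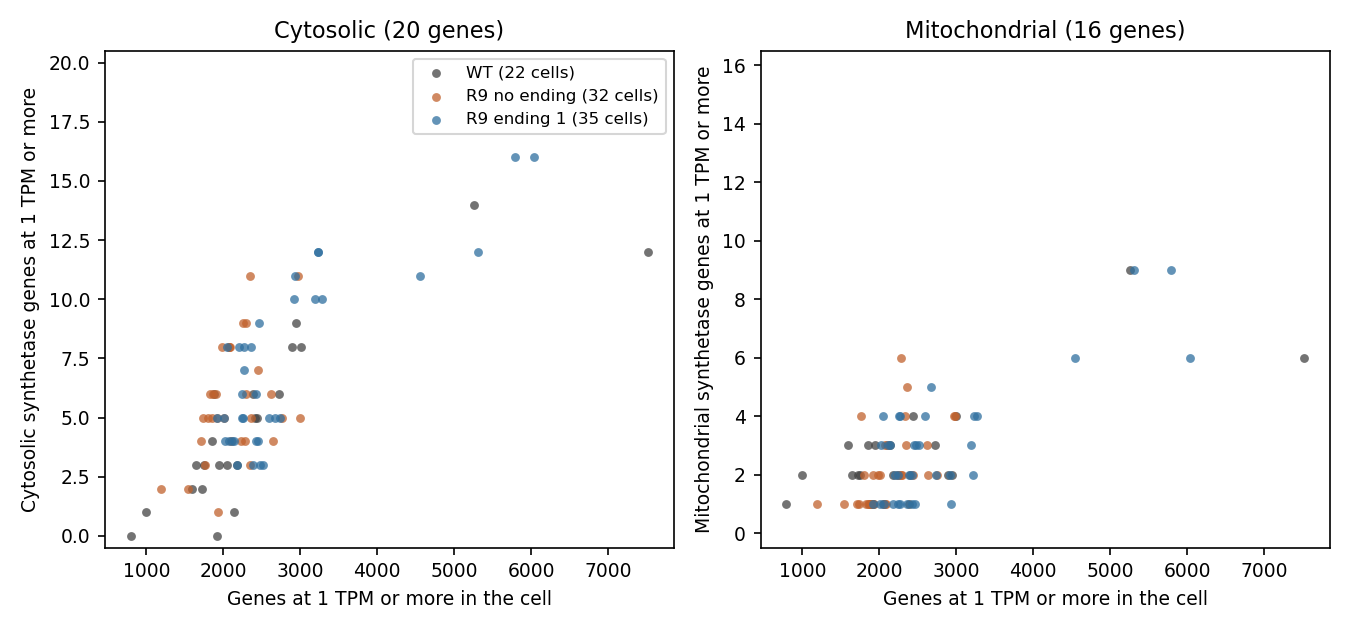
Number of synthetase genes at 1 TPM or more in each cell against the number of all genes at 1 TPM or more in that cell, cytosolic (of 20) and mitochondrial (of 16) genes apart, coloured by set. R9 ending 1 cells reach 16 cytosolic genes and WT cells 14, and both counts go up with the number of genes detected.

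The elongation factors, which act on charged transfer RNAs and the ribosome, were read beside the synthetases. Of 6, 1 was 2-fold or more higher in R9 (16.7%, beside 43.0% of all genes) and 1 lower (16.7%, beside 21.3%), with a median of 0.23. Eef1a1, which brings charged transfer RNA to the ribosome, averaged 1519 TPM in WT and 1736 TPM in R9, and Eif5a, which helps stalled ribosomes on, 1102 and 1324 TPM. Both were detected in every cell. Eef2, which moves the ribosome along, averaged 165 and 281 TPM. Eef1d, a subunit of the exchange factor for elongation factor 1, averaged 13.9 and 3752 TPM, with 98.1% of the R9 sum in 1 cell. The lower gene was Eef1b2, another subunit of that exchange factor, which averaged 347 and 70.3 TPM. Its ratio of -2.29 turned to 0.32 without the highest cells, still below the median of all genes of 1.36.

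Of 11 partners of mitochondrial translation, 5 were higher (45.5%, beside 43.0%) and 2 lower (18.2%, beside 21.3%), with a median of 0.19, near the background. Tufm, the mitochondrial elongation factor Tu, averaged 120 TPM in WT and 75.3 TPM in R9, and Tsfm, its exchange factor, 22.2 and 49.97 TPM. Mtif2, an initiation factor, averaged 41.7 and 22.8 TPM, and Mtrf1l, a release factor, 73.7 and 14.9 TPM, detected in 1 WT cell only. The Mtrf1l ratio of -2.23 turned to 3.38 without the highest cells. Of 6 genes for removal of wrongly charged or stalled products from transfer RNA, 2 were higher (33.3%, beside 43.0%), with Dtd2, listed at 0 in every WT cell, among them, and 1 lower (16.7%, beside 21.3%), with a median of -0.23. Dtd1, which removes D-amino acids, averaged 52.4 and 56.5 TPM, and Prorsd1 53.0 and 35.6 TPM. Aarsd1, an alanine editing protein, averaged 40.5 and 22.1 TPM. Ptrh2, a peptidyl-transfer RNA hydrolase, averaged 28.8 and 11.6 TPM and was the lower gene.

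Of 20 genes of the amino acid stress response, 17 passed the floor of 1 TPM, 8 were higher in R9 (47.1%, beside 43.0%) and 2 lower (11.8%, beside 21.3%), with a median of 0.73 beside 0.62 for all genes. Asns, which makes asparagine and is a textbook ATF4 target, was listed at 0 in all 22 WT cells and averaged 158 TPM in R9, with 50.5% of that sum in 1 cell and detection in 7 of 67. Atf4 itself averaged 37.3 TPM in WT and 62.6 TPM in R9, and Nupr1, a stress-induced chromatin protein, 98.5 and 231 TPM. For both genes the 2 R9 series lay on opposite sides of WT. Atf4 averaged 18.4 TPM in R9 no ending and 103 TPM in R9 ending 1, and Nupr1 6.47 and 437 TPM. Shmt2, the mitochondrial serine hydroxymethyltransferase, averaged 61.4 and 71.1 TPM. Psat1 and Atf5, 2 of the other higher genes, were also listed at 0 in every WT cell. The 2 lower genes, Chac1 and Trib3, were each detected in 1 WT cell and listed at 0 in every R9 cell. The share of this list that was higher is near the background.

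Of 12 amino acid transporter genes, 7 passed the floor, 2 were higher (28.6%, beside 43.0%) and 1 lower (14.3%, beside 21.3%), with a median of 0.45. Slc3a2, the heavy chain shared by several exchangers, averaged 89.1 TPM in WT and 125 TPM in R9, and Slc38a2, a neutral amino acid importer, 29.5 and 29.8 TPM. The 2 higher genes were Slc38a1, a glutamine importer, at 11.5 and 37.04 TPM, and Slc1a5, which exchanges glutamine and other neutral amino acids, at 12.5 and 35.1 TPM.

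The promoters were read for the letters TGATGNAA, on both strands, the core to which ATF4 binds with a C/EBP partner. RefSeq windows from 250 bases before to 50 after the start were held for 12 of the 20 cytosolic and 14 of the 16 mitochondrial genes. The letters were found in 5 of 12 cytosolic windows (41.7%) and in 0 of 14 mitochondrial windows, against 4.51% of all 27025 symbols with a window. They were found in 5 of 19 stress response genes. The 5 cytosolic genes are shown, with 1 match each, because they carry the letters, and in R9 over WT their log2 ratios were 1.37 (Iars), 1.85 (Aars), 2.57 (Gars), 3.00 (Yars) and 3.28 (Tars). A match is only a run of letters. Each line gives 30 bases in the direction of transcription, with the match in capitals, in either orientation. They lie at chr4:129189895-129189924 (Yars, plus strand), chr6:55037960-55037989 (Gars, plus), chr8:111033840-111033869 (Aars, plus), chr13:49682126-49682155 (Iars, plus) and chr15:11399655-11399684 (Tars, minus) of GRCm38.p6.
Yars: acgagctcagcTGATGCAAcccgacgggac
Gars: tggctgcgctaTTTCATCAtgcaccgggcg
Aars: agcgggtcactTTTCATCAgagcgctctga
Iars: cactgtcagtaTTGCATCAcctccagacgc
Tars: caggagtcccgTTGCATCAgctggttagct

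Of the reported cytosolic genes whose windows held no match, Sars had a log2 ratio of 1.79, above Iars but below the other matched genes. Those of Eprs, Farsa, Farsb, Kars and Qars ran from -0.35 to 0.69, below all matched genes. The mitochondrial genes, whose windows held no match, ran from -2.62 (Fars2) to 3.90 (Tars2), so below and above all matched genes. Of the matched genes, Tars had 94.2% of its R9 sum in 1 cell, and Iars was at 0.25 without the highest cells. The member on which the family was selected is left out of this comparison. Whether the letters go with the ratios was not tested. The matches shown began 4, 8 and 10 bases after the start in Yars, Iars and Aars, and 15 and 30 bases before it in Tars and Gars. Hars, Nars, Wars, Rars, Vars, Cars, Lars and Mars were not analysed here for promoter letters.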

How the data were processed

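Per the labels' protocols, single-cell cDNA was amplified (Discover-sc WTA Kit V2) and tagged into libraries (TruePrep DNA Library Prep Kit V2), both from Vazyme. The authors deposited TPM for 67 R9 and 31 WT columns in 2 separately normalized tables, so ratios set levels across tables. Per the submitters' processing notes, HISAT2 2.1.0, StringTie 1.3.4, SAMtools 0.1.19 and bcl2fastq were used with mm10. Where the Pearson r of 2 columns of a group exceeded 0.8 (log2(TPM + 1), genes at 1 TPM or more in both), they were averaged. This gave 22 WT cells, 7 of them from 2 columns and 1 from 3, and that such columns are 1 cell is an assumption. Ratios are log2((mean TPM + 1)/(mean TPM + 1)) for genes with a mean of at least 1 TPM in either group. A ratio of 1 or more, or -1 or less, was counted as 2-fold.

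Members, lists and limits were chosen with earlier results of these data known. Full values went to members that 50% or more of the cells of any set detected and to the 3 largest ratios in each direction among members that 25% or more of the higher group's cells detected. Other lists name up to 4 genes by mean TPM. Other genes were named after their values were seen. Positions and exon overlaps came from the GENCODE annotation of GRCm38, promoters from RefSeq GRCm38.p6, and similar transcripts from blastn 2.17.0 (at least 95% identity over 60 bases). Scripts used Python 3.11.15, pandas 2.3.3 and scipy 1.17.1, and the ratio step was tested on simulated data. The alternatives changed the pseudocount, the floor, the mean, the scaling and the cells used. Gatb, on a list, was not analysed here. Some items that these rules name, 1 member of the family among them, are not reported here.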

Additional observations from a re-analysis of the deposited data

How the results depend on the processing

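The number of cytosolic genes 2-fold higher moved by over 1.5 times only as a difference of mean log2 values (5). The single lower gene became 0 with a pseudocount of 10 TPM, as a difference of mean log2 values and without the highest cells. It was also 0 with dominant genes left out, with R9 ending 1 alone and without cells of over 4000 genes. With R9 no ending alone the number was 6 (30%, beside 44.5% of all genes). The cytosolic median was -0.33 with R9 no ending (all genes -0.67), 2.99 without the highest cells (all genes 1.36), 1.89 with WT ending 1 (1.45) and 1.92 without cells of over 4000 genes (1.04). Mitochondrial genes 2-fold higher numbered 5 with a pseudocount of 10 TPM and 0 as a difference of mean log2 values. With R9 no ending they numbered 5 (35.7%, beside 26.6% of all genes). Those lower numbered 0 as a difference of mean log2 values and without the highest cells, and 4 with R9 no ending (28.6%, beside 44.5%). The share of all genes was not worked out for the settings other than the R9 series. Counts in those settings have no background beside them. The mitochondrial median was 2.34 with a pseudocount of 0.1 TPM (all genes 0.70) and 0.78 with 10 TPM (0.25). It was 2.33 with a floor of 10 TPM (0.52) and 0.22 as a difference of mean log2 values (0.12). Without the highest cells it was 2.64 (1.36), and with R9 no ending 0.76 (-0.67). With WT ending 1 it was 2.24 (1.45), and without cells of over 4000 genes 2.39 (1.04).

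Of 22 members called in either direction and reported here, 13 changed sign in none of the alternatives. As a difference of mean log2 values, Iars was -0.08, Rars 0.08 and Yars2 -0.07. Without the highest cells, Ears2 was 1.92 and Fars2 0.51 (all genes 1.36). With R9 no ending alone, Iars was -0.50, Sars -0.07, Yars -0.15 and Aars2 -1.12, and with R9 ending 1 alone, Tars was -0.19. With WT ending 1 alone (9 columns), Rars was 0.56 and Ears2 3.52. The cause of these changes was not tested. TPM keeps no depth, so how far missed transcripts set the zeros is unknown.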
